A study of Mus musculus with 26 samples.

Results

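Cholesterol synthesis in cultured mouse keratinocytes was followed through 8 genes, Hmgcs1, Idi1, Fdps, Fdft1, Sqle, Cyp51, Dhcr7 and Insig1, which were chosen by name as enzymes of the pathway and its sterol-sensing regulator. They are 8 of 56738 genes in the count table, and all 8 were among the 16893 genes whose mean normalized count was over 10. None of the 8 is a receptor for cholesterol uptake, so uptake genes are described through a separate list. RNA was sequenced from primary keratinocytes of neonatal C57BL/6NJ mice aged 2 days, and each mouse gave 1 untreated (basal) library and 1 library of cells that had received IL17A and TNFα, the cytokine pair that drives psoriatic inflammation, at 20 ng/ml each for 24 h. Libraries that share a number in their titles were taken to come from 1 mouse. Cells had been grown for 4 days in EpiLife medium with 0.06 mM CaCl2, a low-calcium condition that holds keratinocytes in a basal-like state. The 4 groups were wild-type (WT) basal (n = 5), WT with cytokines (n = 5), Pla2g4d-deficient (KO) basal (n = 8) and KO with cytokines (n = 8). The KO strain carries a CRISPR-Cas9 deletion of exon 3 of Pla2g4d, which encodes a cytosolic phospholipase A2 family enzyme, and was backcrossed to C57BL/6NJ before homozygous breeding. The 26 libraries held between 42072745 and 78102858 counts, with a median of 53126822.

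Cholesterol is built from acetyl-CoA through the mevalonate pathway, which yields isoprenoid units that are joined to farnesyl diphosphate, then to squalene, and finally closed and trimmed to the sterol. Its enzymes are transcribed largely under the SREBP transcription factors, which the INSIG and SCAP proteins hold in the endoplasmic reticulum when sterols are plentiful, so that the genes tend to move as a group. In skin, cholesterol is 1 of the main lipid classes of the barrier, beside ceramides and free fatty acids, and keratinocytes make much of it themselves.

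Promoter sequences are shown for genes that varied together between libraries (Hmgcs1, Idi1 and Insig1) and for Cyp51, which rose with the cytokines in KO cells. The RefSeq table (GRCm38.p6), with windows from 250 bases before to 50 bases after a start, had entries for 5 of the 8 genes and none for Fdps, Fdft1 and Sqle; Dhcr7 had 3 listed starts. The 150 bases before the start lie at chr13:119690201-119690350 on the plus strand for Hmgcs1, chr13:8885456-8885605 on the plus strand for Idi1, chr5:28071262-28071411 on the plus strand for Insig1 and chr5:4104698-4104847 on the minus strand for Cyp51. Capitals mark 4 motifs searched on both strands, namely the sterol regulatory element TCACNCCAC, the E-box CACGTG, the NF-Y box CCAAT and the GC box GGGCGG.
Hmgcs1: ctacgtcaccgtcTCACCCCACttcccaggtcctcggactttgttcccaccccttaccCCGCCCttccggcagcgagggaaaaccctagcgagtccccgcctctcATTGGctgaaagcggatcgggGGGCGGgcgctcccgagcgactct
Idi1: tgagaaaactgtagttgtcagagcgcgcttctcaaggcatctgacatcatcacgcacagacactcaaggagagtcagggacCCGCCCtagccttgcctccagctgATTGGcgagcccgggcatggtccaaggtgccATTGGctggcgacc
Insig1: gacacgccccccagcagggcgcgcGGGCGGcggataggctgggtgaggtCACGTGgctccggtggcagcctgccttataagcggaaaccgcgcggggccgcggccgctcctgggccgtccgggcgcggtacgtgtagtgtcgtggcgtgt
Cyp51: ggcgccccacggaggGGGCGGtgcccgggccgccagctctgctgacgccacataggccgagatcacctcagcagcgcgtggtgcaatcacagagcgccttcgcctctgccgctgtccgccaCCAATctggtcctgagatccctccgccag
The sterol element as spelled was present in 1 of the 5 genes, Hmgcs1, at position -137, and in 1.24% of the 32851 promoter windows. The 5 genes have 7 listed starts. CCAAT was present in 5 of these 7 windows and GGGCGG in 6, against 37.4% and 35.7% of all windows. CACGTG was present in Insig1, at position -101, and at 1 of the listed starts of Dhcr7, against 7.15% of all windows. A match describes the letters in the window and is not a measured binding site.

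Markers of keratinocytes were abundant in every group. The summed level of 8 keratinocyte markers, led by Krt5, was 44000 ± 2050 CPM (counts scaled to library size; SD, n = 5) in WT basal and 43700 ± 1950 CPM (SD, n = 8) in KO basal libraries. It was 35200 ± 1050 CPM in WT (SD, n = 5) and 35500 ± 492 CPM in KO libraries (SD, n = 8) with cytokines. Most of this sum was Krt5 and Krt14, at 21200 and 16200 CPM in WT basal libraries. The 8 markers did not move together, with 4 lower and 1 higher in WT cells. In KO cells 3 were lower and 2 higher (edgeR, adjusted p under 0.1), where 36.8% of all genes passed in WT and 35.8% in KO cells. Markers of differentiated keratinocytes, led by Sbsn, summed to 4850 ± 1060 CPM in WT basal (SD, n = 5) and 3420 ± 966 CPM in KO basal libraries (SD, n = 8), and all 8 fell with cytokines in both genotypes, to sums of 1190 ± 239 CPM (SD, n = 5) and 820 ± 165 CPM (SD, n = 8). Melanocyte markers, led by Tyrp1, were present in all groups, at 573 ± 75.8 CPM in WT basal (SD, n = 5), 457 ± 61.7 CPM in WT cytokine (SD, n = 5), 578 ± 58.5 CPM in KO basal (SD, n = 8) and 363 ± 32.7 CPM in KO cytokine libraries (SD, n = 8). Of 8 fibroblast markers, 7 averaged under 1 CPM, the highest being Pdgfra at 1.32 CPM. Of 8 immune cell markers, 6 were under 1 CPM, Cd207 had no count in any library, and Cd68 led at 24.4 CPM. Of 6 endothelial markers, 4 were under 1 CPM with Emcn and Cldn5 at 0 throughout, of 6 adipocyte markers 5 were under 1 CPM (Fabp4 led at 14.3 CPM), and of 8 sebocyte markers 6 were under 1 CPM (Mgst1 led at 32.2 CPM). Mean sums without and with cytokines were 6.30 and 26.5 CPM in WT and 6.71 and 19.7 CPM in KO cells for adipocyte, 2.07 and 4.75 CPM and 3.04 and 5.29 CPM for endothelial, 41.9 and 59.1 CPM and 36.8 and 45.1 CPM for sebocyte, and 24.8 and 40.6 CPM and 28.2 and 35.9 CPM for immune markers. Fabp4 alone was at 6.15 and 26.4 CPM in WT and 6.67 and 19.6 CPM in KO cells, nearly the whole adipocyte sum. Pecam1 and Kdr made most of the endothelial sum, Mgst1 and Cidea most of the sebocyte sum, and Cd68 most of the immune sum. Each sum thus follows few genes of its list. In bulk RNA, fewer cells of a type and less RNA per cell cannot be told apart, and the part of differentiation state or melanocytes in the values of the 8 genes was not tested.

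Proliferation markers separated 1 mouse from the other WT mice. The summed level of 10 proliferation markers, led by Top2a, was 644 CPM in WT basal replicate 1 and 273 to 339 CPM in the other 4 WT basal libraries. With cytokines it was 759 CPM in WT replicate 1 and 347 to 368 CPM in the other 4. In KO mice the sum ran from 302 to 600 CPM in basal and from 455 to 695 CPM in cytokine libraries.

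The targeted gene was still counted in the KO libraries, where the deleted exon is only part of the transcript. WT basal replicates 1 to 5 had 1.21, 4.4, 3.14, 3.33 and 4.63 CPM of Pla2g4d, and KO basal libraries had from 1.15 to 2.98 CPM with a median of 2.10. With cytokines, WT replicates had 28.6, 65.1, 47.0, 57.2 and 62.9 CPM, and KO libraries from 29.2 to 59.2 CPM with a median of 36.2. The KO and WT ranges overlapped in both conditions. In basal cells Pla2g4d was lower in KO than in WT libraries (log2 fold change -0.70 ± 0.26, edgeR, adjusted p = 0.0936), and with cytokines the log2 fold change was -0.45 ± 0.23 (edgeR, adjusted p = 0.345). A count over the whole gene does not test for exon 3, so these values do not check the genotype labels.

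Per length, the 8 genes spanned a wide range of levels. In WT basal cells Hmgcs1 stood highest at 118 CPM per kb of its canonical transcript, followed by Sqle at 61.3, Fdft1 at 49.9, Cyp51 at 39.8 and Idi1 at 31.9 CPM per kb. Insig1 at 17.2 and Dhcr7 at 14.5 CPM per kb were lower, and Fdps was lowest at 4.46 CPM per kb. The order of the 8 was the same in KO basal cells, with Hmgcs1 at 116 and Fdps at 3.38 CPM per kb. With cytokines Dhcr7 stood at 15.7 and Insig1 at 14.2 CPM per kb in WT and at 14.9 and 14.4 CPM per kb in KO cells, the reverse of their basal order.

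**Figure D1:**
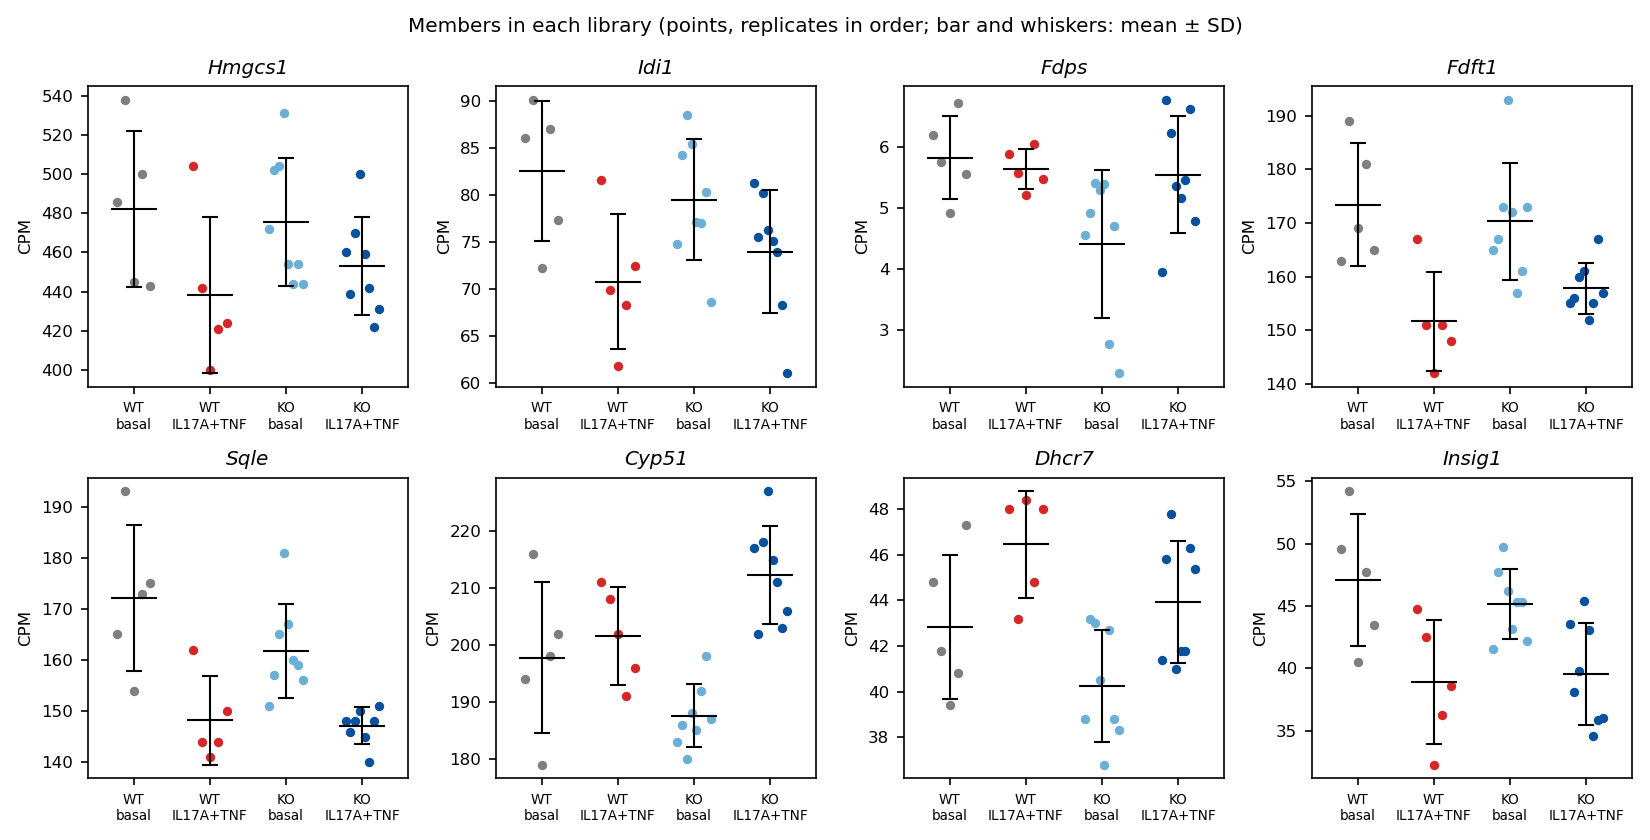
CPM of each of the 8 genes (one panel per gene, vertical axis in CPM and not starting at 0) in the 26 libraries by group, with points for libraries and a bar with whiskers for the mean ± SD. Cyp51 in KO cells has no overlap between basal (180 to 198 CPM) and cytokine (202 to 227 CPM) libraries, and every other gene overlaps between each pair of groups compared.

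After IL17A and TNFα the genes that passed changed by small amounts. In WT cells 4 of the 8 genes passed the test (edgeR quasi-likelihood, Benjamini-Hochberg adjusted p under 0.1 over 16893 genes), and all 4 were lower, namely Idi1, Fdft1, Sqle and Insig1. Over all genes tested in WT cells, 36.8% passed, 18.0% as lower and 18.8% as higher. In KO cells 6 of the 8 passed, with Fdft1, Sqle and Insig1 lower and Fdps, Cyp51 and Dhcr7 higher (1 of the 3 higher without KO replicate 7 or 8), while 35.8% of all genes passed, 18.1% as lower and 17.7% as higher. The median log2 fold change of the 8 genes was -0.17 in WT and -0.087 in KO cells, and over all genes tested it was 0.014 and 0.0046. No gene of the 8 also exceeded a 1.5-fold change in either genotype by edgeR or DESeq2, whereas 13.9% of all genes did so in WT and 10.9% in KO cells; 5 of the 8 had an unadjusted p under 0.05 in WT and 6 in KO cells, as did 39.4% and 38.5% of all genes. With 8 genes, nothing particular to the pathway is read from these counts. The changes of single genes follow in the order of the pathway.

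Hmgcs1 encodes the cytosolic synthase that makes HMG-CoA at the entry to the mevalonate pathway (GRCm39, chr13:120151915-120170470, plus strand). WT basal replicates 1 to 5 had 486, 538, 445, 500 and 443 CPM, and the same mice had 504, 442, 400, 421 and 424 CPM with cytokines. KO basal libraries ran from 444 to 531 CPM with a median of 463, and KO cytokine libraries from 422 to 500 CPM with a median of 451. In WT mice, 4 of the 5 cytokine libraries lay below every basal library, and replicate 1 was the exception and rose slightly. The log2 fold change in WT cells was -0.14 ± 0.064 (SE) and missed the threshold (edgeR, adjusted p = 0.103), but it passed with mouse as a block, where it was -0.14 (edgeR, adjusted p = 0.0188), and without WT replicate 1, where it was -0.20 (edgeR, adjusted p = 0.0208). It also passed narrowly without KO replicate 3, 4, 6 or 8 (edgeR, adjusted p from 0.0711 to 0.0956) and with DESeq2 (adjusted p = 0.0969). In KO cells it was -0.070 ± 0.050 (edgeR, adjusted p = 0.332), with 7 of 8 mice lower.

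Idi1 encodes the isomerase that interconverts the isoprenoid building blocks isopentenyl and dimethylallyl diphosphate (GRCm39, chr13:8935537-8942487, plus strand). In WT basal replicates 1 to 5 it had 86.0, 90.1, 72.2, 87.0 and 77.3 CPM, and with cytokines 81.5, 69.8, 61.8, 68.2 and 72.4 CPM. In KO cells the basal range was 68.6 to 88.5 CPM (median 78.7) and the cytokine range 61.0 to 81.2 CPM (median 75.3). Every WT mouse was lower with cytokines than without, by between 0.078 and 0.37 on the log2 scale, although the 2 groups of libraries overlapped. Idi1 fell in WT cells (log2 fold change -0.22 ± 0.078, edgeR, adjusted p = 0.0293), a call that was lost without WT replicate 2 (edgeR, adjusted p = 0.115) and without WT replicate 4 (edgeR, adjusted p = 0.127). In KO cells 7 of 8 mice were lower and the fold change was -0.10 ± 0.061 (edgeR, adjusted p = 0.221), and with mouse as a block it passed (log2 fold change -0.11, edgeR, adjusted p = 0.0628).

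Fdps encodes farnesyl diphosphate synthase, which supplies both the sterol and the non-sterol branches (GRCm39, chr3:89000888-89019213, minus strand). It rested on few counts, 119 to 513 per library, against at least 1486 for each of the other 7 genes. WT basal replicates 1 to 5 had 6.19, 5.75, 4.91, 6.72 and 5.55 CPM and WT cytokine replicates 5.88, 5.57, 5.21, 6.04 and 5.47 CPM. KO basal libraries ran from 2.30 to 5.41 CPM (median 4.81) and KO cytokine libraries from 3.95 to 6.77 CPM (median 5.41). Replicates 8 and 6 of KO basal, at 2.30 and 2.77 CPM, were low beside the other 6, which lay between 4.55 and 5.41 CPM. In KO cells Fdps rose with cytokines (log2 fold change 0.33 ± 0.15, edgeR, adjusted p = 0.0942, higher in 6 of 8 mice), and leaving out any of 10 of the 13 mice ended the call (all 5 WT mice and KO replicates 2, 3, 6, 7 and 8, with adjusted p from 0.104 to 0.238 in edgeR), as did testing without the filter on low counts (edgeR, adjusted p = 0.111) or only the 2 groups compared (edgeR, adjusted p = 0.152). The fold change was smallest without KO replicate 6 (log2 fold change 0.25, edgeR, adjusted p = 0.238), followed by KO replicate 8 (0.25, edgeR, adjusted p = 0.164). In WT cells the log2 fold change was -0.048 ± 0.18 (edgeR, adjusted p = 0.878).

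Reads of Fdps could also belong to near-identical copies, so its level is uncertain. Its canonical transcript aligned to 6 other places in GRCm39, all processed pseudogenes, the closest being Gm3571 on chromosome 10 with 98.7% identity over 1166 nt, and these 6 copies together held 26.7% as many counts as Fdps. For Idi1 the copy Idi1-ps1 on chromosome 2 was 99.3% identical over 2494 nt, and its 2 copies held 0.896% as many counts as the gene. Fdft1 had 1 copy with 97.0% identity and Insig1 had 1 with 78.2%, with 0.178% and 0.00322% as many counts, and none was found for Hmgcs1, Sqle, Cyp51 and Dhcr7. The sources used here do not give how reads that match a gene and a copy equally were counted. These shares therefore do not measure how many reads a gene lost or gained. The snRNA gene Gm22935 overlaps Fdps on the same strand. On the opposite strand, annotated genes overlap Hmgcs1, Idi1, Fdft1, Sqle, Cyp51 and Insig1. The libraries were strand-specific, but whether the counting used the strand is not given in the sources used here, so reads from these partners cannot be told apart.

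Fdft1 and Sqle carry the pathway from farnesyl diphosphate to squalene and on to its epoxide, the committed steps toward sterols. Both fell with the cytokines in both genotypes. For Fdft1, squalene synthase (GRCm39, chr14:63382189-63417027, minus strand), WT replicates 1 to 5 had 163, 189, 169, 181 and 165 CPM without and 167, 151, 142, 151 and 148 CPM with cytokines. Fdft1 in KO libraries ran from 157 to 193 CPM (median 170) without and from 152 to 167 CPM (median 157) with cytokines. The ranges overlapped, with 4 of 5 WT and 5 of 8 KO cytokine libraries below the lowest basal one. Its log2 fold change was -0.19 ± 0.051 in WT (edgeR, adjusted p = 0.00388, lower in 4 of 5 mice) and -0.11 ± 0.040 in KO cells (edgeR, adjusted p = 0.0374, lower in 7 of 8 mice), the latter missing the threshold without the filter on low counts (edgeR, adjusted p = 0.111). For Sqle, squalene epoxidase (GRCm39, chr15:59186869-59203043, plus strand), WT basal replicates 1 to 5 had 165, 193, 154, 173 and 175 CPM and WT cytokine replicates 162, 144, 141, 144 and 150 CPM. Sqle in KO basal libraries ran from 151 to 181 CPM (median 159), and in KO cytokine libraries from 140 to 151 CPM (median 148). In both genotypes the ranges overlapped, with 7 of 8 KO cytokine libraries lay below the lowest KO basal library and 4 of 5 WT cytokine libraries below the lowest WT basal one, WT replicate 1 being the exception. Sqle fell in WT cells (log2 fold change -0.22 ± 0.051, edgeR, adjusted p = 0.0014, lower in 5 of 5 mice) and in KO cells (-0.14 ± 0.040, edgeR, adjusted p = 0.00995, lower in 8 of 8 mice).

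Cyp51 and Dhcr7 act later, on the sterol ring itself. Cyp51 encodes lanosterol 14α-demethylase (GRCm39, chr5:4123416-4154751, minus strand). WT basal replicates 1 to 5 had 194, 216, 179, 198 and 202 CPM of Cyp51, and WT cytokine replicates 211, 208, 202, 191 and 196 CPM. KO basal libraries ran from 180 to 198 CPM (median 187) and KO cytokine libraries from 202 to 227 CPM (median 213). In KO cells every cytokine library was above every basal one, which was the case, in either direction, for 11.8% of all genes tested in KO cells, and for 20.5% in WT cells, where Cyp51 overlapped. Cyp51 rose in KO cells (log2 fold change 0.18 ± 0.035, edgeR, adjusted p = 0.000175, higher in 8 of 8 mice), while in WT cells the log2 fold change was 0.027 ± 0.044 (edgeR, adjusted p = 0.696, higher in 2 of 5 mice), and it turned below 0 without WT replicate 1 (-0.0091) or WT replicate 3 (-0.022). The difference between the genotypes in this response was 0.15 ± 0.056 on the log2 scale and did not pass (edgeR, adjusted p = 0.333).

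Dhcr7 encodes the reductase of the last step to cholesterol (GRCm39, chr7:143376740-143402149, plus strand). WT replicates 1 to 5 had 44.8, 41.8, 39.4, 40.8 and 47.3 CPM of Dhcr7 without and 48.0, 43.2, 48.4, 44.8 and 48.0 CPM with cytokines. KO libraries ran from 36.8 to 43.2 CPM (median 39.6) without and from 41.0 to 47.8 CPM (median 43.6) with cytokines. The cytokine libraries were on the high side, and the groups compared overlapped. In KO cells Dhcr7 rose (log2 fold change 0.13 ± 0.047, edgeR, adjusted p = 0.0434, higher in 7 of 8 mice). That call was lost without KO replicate 5 (edgeR, adjusted p = 0.106), KO replicate 7 (edgeR, adjusted p = 0.133) or KO replicate 8 (edgeR, adjusted p = 0.15). In WT cells the log2 fold change was 0.12 ± 0.060 (edgeR, adjusted p = 0.143, higher in 5 of 5 mice), and with mouse as a block it passed narrowly (edgeR, adjusted p = 0.0978), while without WT replicate 3 the log2 fold change was 0.058 (edgeR, adjusted p = 0.569). The difference between the genotypes in the response of Dhcr7 was 0.0083 ± 0.076 (edgeR, adjusted p = 0.99).

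Insig1 encodes the sterol-sensing protein that retains SCAP and the SREBP precursors in the endoplasmic reticulum, and is itself an SREBP target (GRCm39, chr5:28276315-28283668, plus strand). WT basal replicates 1 to 5 had 49.6, 54.2, 40.5, 47.7 and 43.5 CPM of Insig1, and the same mice with cytokines had 44.8, 42.5, 32.3, 36.3 and 38.6 CPM. KO basal libraries ran from 41.6 to 49.7 CPM (median 45.3), and KO cytokine libraries from 34.6 to 45.4 CPM (median 39.0). In WT replicate 3 Insig1 was the lowest of its group in both conditions, and the groups overlapped although each of the 5 WT mice was lower with cytokines. Insig1 fell in WT cells (log2 fold change -0.28 ± 0.087, edgeR, adjusted p = 0.0153, lower in 5 of 5 mice) and in KO cells (-0.19 ± 0.069, edgeR, adjusted p = 0.0348, lower in 7 of 8 mice). The largest fall among the 8 genes in each genotype was that of Insig1.

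**Figure D2:**
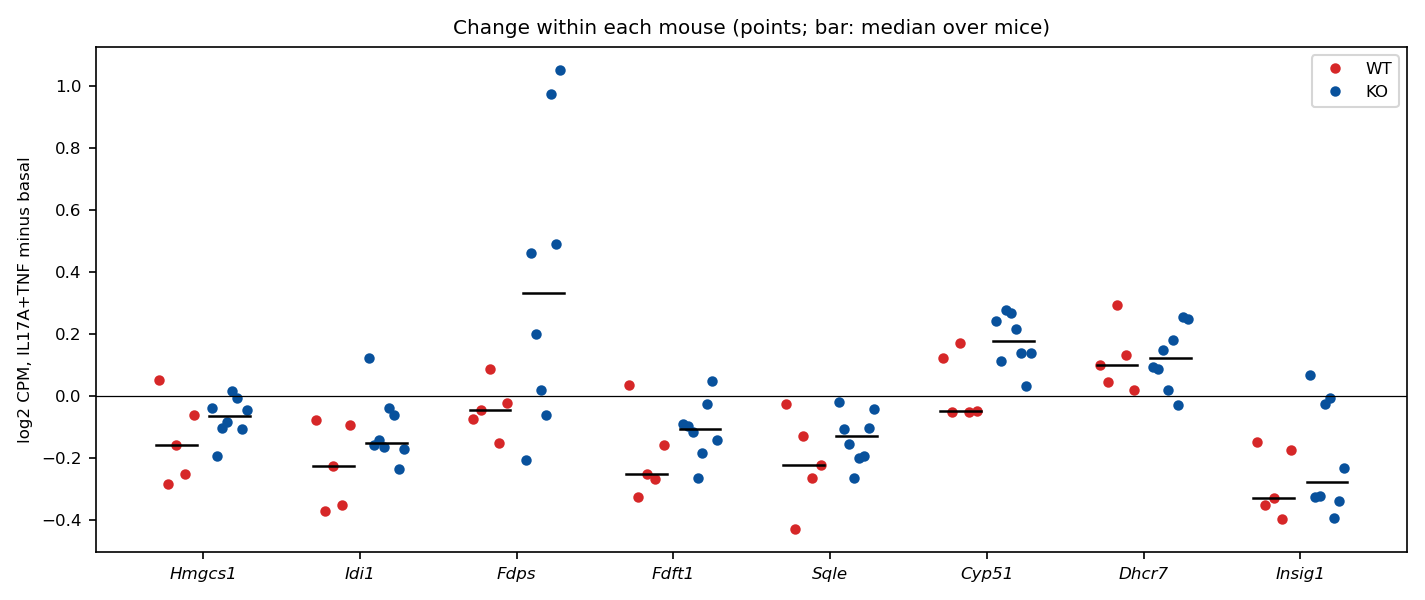
Change within each mouse, as log2 CPM with cytokines minus log2 CPM without (vertical axis), for the 8 genes, with a point per mouse (5 WT, 8 KO) and a bar at the median. Sqle lies below 0 in all 13 mice, Cyp51 lies above 0 in all 8 KO mice, and Fdps in KO mice spreads from -0.20 to 1.05.

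**Figure D3:**
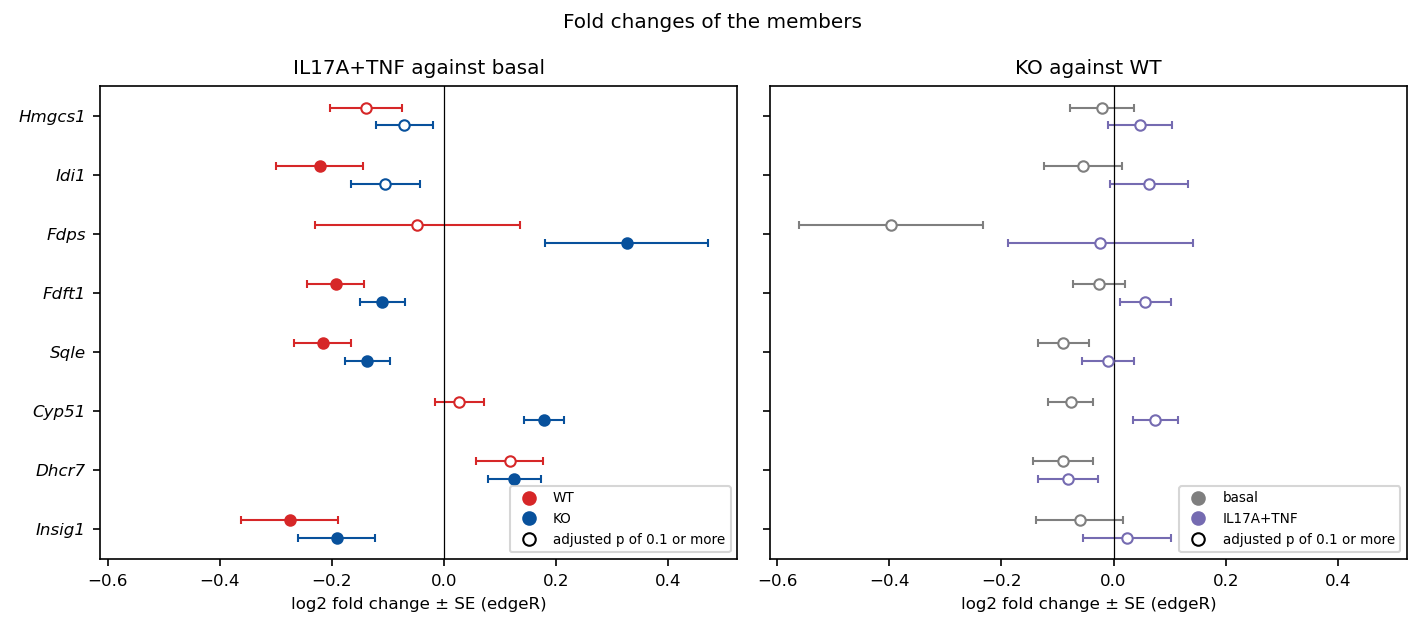
Log2 fold change ± SE (horizontal axis) of the 8 genes for cytokines against basal in each genotype (left) and KO against WT in each condition (right), with filled points for an adjusted p under 0.1. No gene has a filled point on the right.

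Between the genotypes none of the 8 genes passed the test in either condition. In basal cells, where 13.6% of all genes passed and 2.68% also exceeded a 1.5-fold change, 0 of the 8 passed by edgeR and 0 by DESeq2, with 1 at an unadjusted p under 0.05, as were 22.4% of all genes. That gene was Fdps, with a log2 fold change of -0.40 ± 0.16 for KO against WT (edgeR, adjusted p = 0.136), and 4 of its 8 KO libraries lay below the lowest WT library. All 8 genes had a fold change below 0, with a median of -0.069 against 0.00040 over all genes tested, and the other 7 lay between -0.021 and -0.089. Without WT replicate 2, Hmgcs1 (0.021) and Fdft1 (0.0080) were above 0 and the median was -0.032, and without WT replicate 3 it was -0.12. With cytokines, where 2.84% of all genes passed and 0.704% also exceeded 1.5-fold, 0 of the 8 passed by edgeR and 0 by DESeq2, and 0 had an unadjusted p under 0.05, against 2533 of the 16893 genes. Here the log2 fold changes lay between -0.081 for Dhcr7 and 0.075 for Cyp51, with a median of 0.036 against -0.0078 over all genes tested. That median rested on single mice. It was 0.092, 0.058, -0.00031 and 0.018 with WT replicates 1, 2, 3 and 4 left out in turn, and 0.0091, 0.056 and 0.055 with KO replicates 4, 6 and 8 left out. The share of all genes passing with cytokines depended strongly on single mice, from 107 genes without WT replicate 3 to 2068 without WT replicate 1, while 0 of the 8 passed without any single mouse.

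The test of whether the cytokine response differed between genotypes gave no call among the 8 genes either. It called 0.983% of all genes, and 0.219% with a difference over 1.5-fold; 0 of the 8 passed by edgeR and 0 by DESeq2, and 1 gene, Cyp51, had an unadjusted p under 0.05, against 9.13% of all genes. All 8 differences were above 0 (7 of 8 without WT replicate 2 or 5 or without KO replicate 7 or 8), meaning a response less negative or more positive in KO than in WT cells, with a median of 0.083 against -0.013 over all genes tested. They ran from 0.0083 ± 0.076 for Dhcr7 to 0.37 ± 0.23 for Fdps on the log2 scale. The genes vary together between libraries, so their 8 signs are not separate observations. Without WT replicate 1, in which Hmgcs1, Idi1, Fdft1, Sqle, Cyp51 and Insig1 were each the highest of the WT cytokine libraries, the median difference was 0.15 and 0 of the 8 passed. With mouse as a block, 473 genes passed in place of 166, again with 0 of the 8.

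The 8 genes did not vary independently. After subtraction of group means, 23 of the 28 pairs had a positive Pearson r of log2 CPM over the 26 libraries, and 11 pairs had an r above 0.5. The highest were Hmgcs1 with Insig1 (0.81), Hmgcs1 with Idi1 (0.80), Idi1 with Insig1 (0.79) and Fdft1 with Sqle (0.74). Dhcr7 stood apart, with r between -0.088 and 0.205 to each of the other 7, and Fdps, with its few counts, lay between -0.11 and 0.42. The points share depth, normalization and, in pairs, the mouse, so these r describe the libraries only. The mean z-score of the 8 genes after subtraction of group means had an r of 0.45 with the summed proliferation markers, -0.43 with the sebocyte markers, -0.37 with the differentiation markers, -0.36 with the keratinocyte markers, -0.32 with the melanocyte and with the immune markers, and 0.24 with the library total, and the part of these in the shared variation was not tested.

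**Figure D4:**
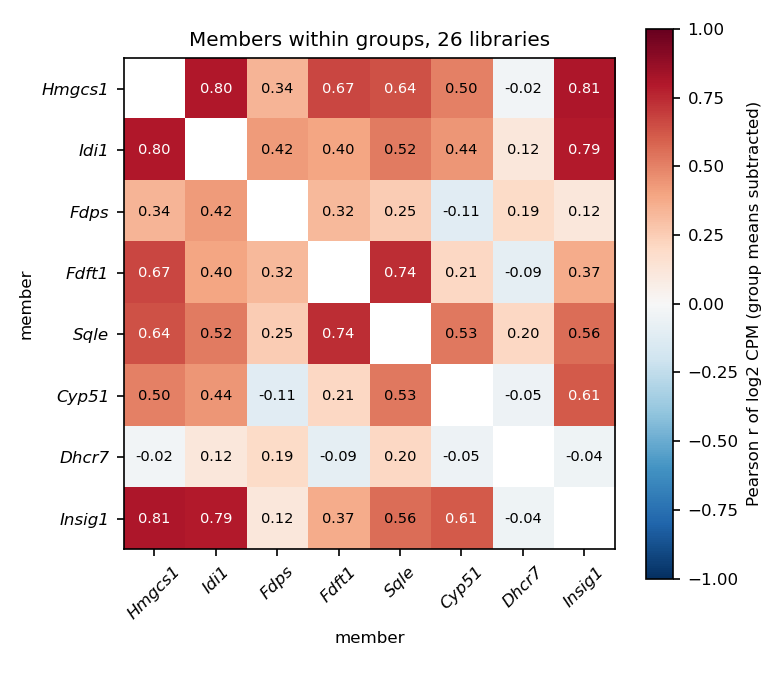
Pearson r of log2 CPM between the 8 genes over 26 libraries after subtraction of group means (color scale from -1 to 1, both axes list the genes). Hmgcs1, Idi1 and Insig1 form the block of highest r (0.79 to 0.81), and the Dhcr7 row lies between -0.088 and 0.205.

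Genes with the most similar pattern were looked for among 11847 genes with a mean normalized count over 100. Over the 26 libraries, the 5 highest r with the mean z-score of the 8 genes were those of Fem1b (0.83), a substrate adaptor of a ubiquitin ligase, Bet1 (0.79), a SNARE of transport between endoplasmic reticulum and Golgi, Ccng1 (0.77), cyclin G1, Stard4 (0.75), a sterol transfer protein, and H60c (0.75), a ligand of the NKG2D receptor. After subtraction of group means, ranks 2 to 5 were held by Arl6ip1 (0.85), Sec24c (0.81), Fem1b (0.79) and Tmem237 (0.79), and rank 1 is not reported. Fem1b was named by both rankings.

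Fixed lists of related genes are given by their counts, beside which all genes tested were 18.8% higher and 18.0% lower in WT and 17.7% and 18.1% in KO cells. Of 8 mevalonate pathway enzymes, 3 of them among the 8 genes above, 1 rose and 2 fell in WT cells, and 4 rose and 1 fell in KO cells (medians -0.082 and 0.073). With cytokines 1 of these 8 was higher in KO than in WT cells, where 2.84% of all genes passed. Mvd, the decarboxylase, rose in WT (log2 fold change 0.32 ± 0.080, edgeR, adjusted p = 0.00276) and KO cells (0.40 ± 0.063, edgeR, adjusted p = 9.71e-06), in all 13 mice, and Mvk, the kinase, fell in WT (-0.29 ± 0.075, edgeR, adjusted p = 0.00357) and KO cells (-0.21 ± 0.059, edgeR, adjusted p = 0.00639), in 12 of 13 mice. Of 13 enzymes after farnesyl diphosphate, 4 of them among the 8 genes, 1 rose and 5 fell in WT cells, and 5 rose and 4 fell in KO cells (medians -0.0057 and 0.029). Sc5d, the lathosterol desaturase, averaged 91.2 ± 8.40 CPM without and 107 ± 6.63 CPM with cytokines in WT cells (SD, n = 5), and 79.6 ± 5.43 CPM and 106 ± 6.06 CPM in KO cells (SD, n = 8). It rose in both genotypes (0.23 ± 0.061, edgeR, adjusted p = 0.0038, and 0.41 ± 0.049, edgeR, adjusted p = 7.87e-08), in all 13 mice. Ebp, an isomerase of late steps, fell in WT cells (-0.26 ± 0.055, edgeR, adjusted p = 0.000486, 5 of 5 mice) and in KO cells (-0.17 ± 0.044, edgeR, adjusted p = 0.00266, 8 of 8 mice). In KO against WT basal cells, Ebp (-0.19 ± 0.049, edgeR, adjusted p = 0.0127) and Sc5d (-0.20 ± 0.055, edgeR, adjusted p = 0.0213) were the 2 of these 13 that passed, both lower, with 8 of 8 KO libraries below the WT median for each, where 13.6% of all genes passed.

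Of 10 SREBP pathway regulators, Insig1 included, 1 rose and 4 fell in WT cells, and 2 rose and 3 fell in KO cells (medians -0.080 and -0.029). Insig2, the second INSIG protein, fell in both genotypes (-0.42 ± 0.080, edgeR, adjusted p = 0.000121, and -0.36 ± 0.063, edgeR, adjusted p = 4.15e-05), and so did Scap (-0.15 ± 0.042, edgeR, adjusted p = 0.0061, and -0.11 ± 0.033, edgeR, adjusted p = 0.00916), each in all 13 mice. In basal KO cells Srebf1 (-0.16 ± 0.053, edgeR, adjusted p = 0.048) and Rnf139 (-0.23 ± 0.074, edgeR, adjusted p = 0.0447) were lower than in WT cells, with 7 of 8 and 8 of 8 KO libraries below the WT median. They were the 2 of the 10 that passed in this comparison, where 13.6% of all genes passed.

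Genes of cholesterol uptake and intracellular transport were tested as a list of 15, of which 5 rose and 3 fell in WT cells, and 4 rose and 3 fell in KO cells (medians 0.090 and 0.038). Npc1 and Npc2, which export cholesterol from lysosomes, rose in WT cells (0.34 ± 0.074, edgeR, adjusted p = 0.000659, and 0.30 ± 0.053, edgeR, adjusted p = 4.5e-05) and in KO cells (0.31 ± 0.059, edgeR, adjusted p = 0.000105, and 0.24 ± 0.042, edgeR, adjusted p = 3.56e-05), each in all 13 mice. Gramd1a, which moves cholesterol from the plasma membrane to the endoplasmic reticulum, rose as well (log2 fold change 0.44 ± 0.085 in WT, edgeR, adjusted p = 0.00016, and 0.34 ± 0.067 in KO, edgeR, adjusted p = 0.000209), in all 13 mice. The endocytic receptor Lrp1 fell in WT (-0.35 ± 0.072, edgeR, adjusted p = 0.000359, 5 of 5 mice) and KO cells (-0.16 ± 0.057, edgeR, adjusted p = 0.034, 6 of 8 mice). Scarb1, the HDL receptor, was higher in KO than in WT basal cells (0.24 ± 0.063, edgeR, adjusted p = 0.0163), and Lrp1 was lower (-0.26 ± 0.065, edgeR, adjusted p = 0.00944), with all 8 KO libraries on that side of the WT median for each. They were the 2 of the 15 that passed in this comparison, a share near the 13.6% of all genes that passed. With cytokines 0 of the 15 passed between genotypes by edgeR, 1 passed by DESeq2 and 4 had an unadjusted p under 0.05, against 2533 of the 16893 genes.

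A further list held enzymes that esterify, sulfate or hydroxylate cholesterol. Of 10 such genes 9 were in the table and 7 were tested, and in each genotype 4 rose and 1 fell, with medians of 0.74 in WT and 0.61 in KO cells. Cyp7b1, an oxysterol hydroxylase, averaged 0.330 ± 0.229 CPM without and 6.33 ± 1.01 CPM with cytokines in WT cells (SD, n = 5), and 0.208 ± 0.207 CPM and 5.19 ± 1.26 CPM in KO cells (SD, n = 8). Ch25h, which makes 25-hydroxycholesterol, averaged 1.41 ± 0.234 CPM and 5.18 ± 1.06 CPM in WT cells (SD, n = 5), and 1.56 ± 0.254 CPM and 3.70 ± 0.731 CPM in KO cells (SD, n = 8), in the same order. Both rose in all 13 mice and passed in both genotypes (Cyp7b1 4.23 ± 0.51, edgeR, adjusted p = 1.33e-07 in WT and 4.66 ± 0.43, edgeR, adjusted p = 5.56e-10 in KO cells, and Ch25h 1.88 ± 0.19, edgeR, adjusted p = 4.48e-09 and 1.24 ± 0.15, edgeR, adjusted p = 8.28e-08). The fold changes of Cyp7b1 rest on basal levels near 0. Soat1, an acyltransferase that makes cholesteryl esters, rose (0.74 ± 0.13 in WT, edgeR, adjusted p = 3.09e-05, and 0.61 ± 0.10 in KO, edgeR, adjusted p = 1.78e-05), and so did the sulfotransferase Sult2b1 (0.82 ± 0.13, edgeR, adjusted p = 1.17e-05, and 0.72 ± 0.10, edgeR, adjusted p = 2.16e-06), each in all 13 mice. In KO basal cells Soat1 was higher (0.33 ± 0.12, edgeR, adjusted p = 0.073) and Cyp27a1 lower (-0.56 ± 0.15, edgeR, adjusted p = 0.0131) than in WT basal cells, with 7 of 8 and 8 of 8 KO libraries on that side of the WT median. They were the 2 of the 7 that passed between genotypes in basal cells, where 13.6% of all genes passed. With cytokines Nceh1, a cholesteryl ester hydrolase, was the 1 of the 7 that passed by edgeR, higher in KO cells (0.28 ± 0.080, edgeR, adjusted p = 0.0728, all 8 KO libraries above the WT median). In this comparison 2.84% of all genes passed by edgeR. By DESeq2 2 of the 7 passed, against 800 of the 16893 genes. An unadjusted p under 0.05 was found for 3 of the 7, against 2533 of the 16893 genes.

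Of 9 genes of cholesterol efflux and LXR response, 2 rose and 2 fell in WT cells, and 4 rose and 1 fell in KO cells (medians 0.079 and 0.17). Abcg1, a sterol exporter, rose in both genotypes (1.30 ± 0.22, edgeR, adjusted p = 1.96e-05, and 0.98 ± 0.17, edgeR, adjusted p = 3.54e-05), in all 13 mice, and Abca2, a lipid transporter, fell in WT cells (-0.35 ± 0.089, edgeR, adjusted p = 0.00245, 5 of 5 mice). In KO against WT basal cells, where 13.6% of all genes passed and 1024 of 16893 were lower, 3 of the 9 were lower, among them Abca2 (-0.36 ± 0.079, edgeR, adjusted p = 0.00307) with all 8 KO libraries below the WT median. Isoprenoid branch enzymes, which use farnesyl and geranylgeranyl diphosphate outside sterol synthesis, had 1 of 11 higher and 1 lower in WT cells and 1 higher and 2 lower in KO cells (medians -0.020 and 0.012). Of 14 fatty acid synthesis genes, 3 rose and 7 fell in WT cells and 4 rose and 4 fell in KO cells (medians -0.21 and -0.088). Acaca, acetyl-CoA carboxylase, fell in both genotypes (-0.36 ± 0.045, edgeR, adjusted p = 1.58e-07, and -0.27 ± 0.035, edgeR, adjusted p = 5.8e-07), in all 13 mice, and the desaturase Fads1 rose in KO cells (0.69 ± 0.12, edgeR, adjusted p = 2.61e-05, 8 of 8 mice). Fads1 was also higher with cytokines in 5 of 5 WT mice. It averaged 16.6 ± 4.75 CPM without and 25.4 ± 5.41 CPM with cytokines in WT cells (SD, n = 5). In KO cells it averaged 20.6 ± 3.28 CPM and 33.2 ± 2.78 CPM (SD, n = 8). Elovl6, a fatty acid elongase, fell in WT cells (-0.92 ± 0.18, edgeR, adjusted p = 0.000149, 5 of 5 mice) and missed the threshold in KO cells (-0.31 ± 0.14, edgeR, adjusted p = 0.101, lower in 8 of 8 mice). With cytokines it was higher in KO than in WT cells (0.54 ± 0.16, edgeR, adjusted p = 0.0934, all 8 KO libraries above the WT median). Elovl6 was the 1 of the 14 that passed there by edgeR, while 5 passed by DESeq2 and 6 had an unadjusted p under 0.05. Over the 87 tested genes of all 8 lists, these counts were 3, 9 and 20. Over the 16893 genes they were 479, 800 and 2533. Of the 87 tested genes of these 8 lists, 0 passed the test of a genotype difference in the cytokine response by edgeR and 0 by DESeq2, and 11 had an unadjusted p under 0.05, as did 9.13% of all genes.

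**Figure D5:**
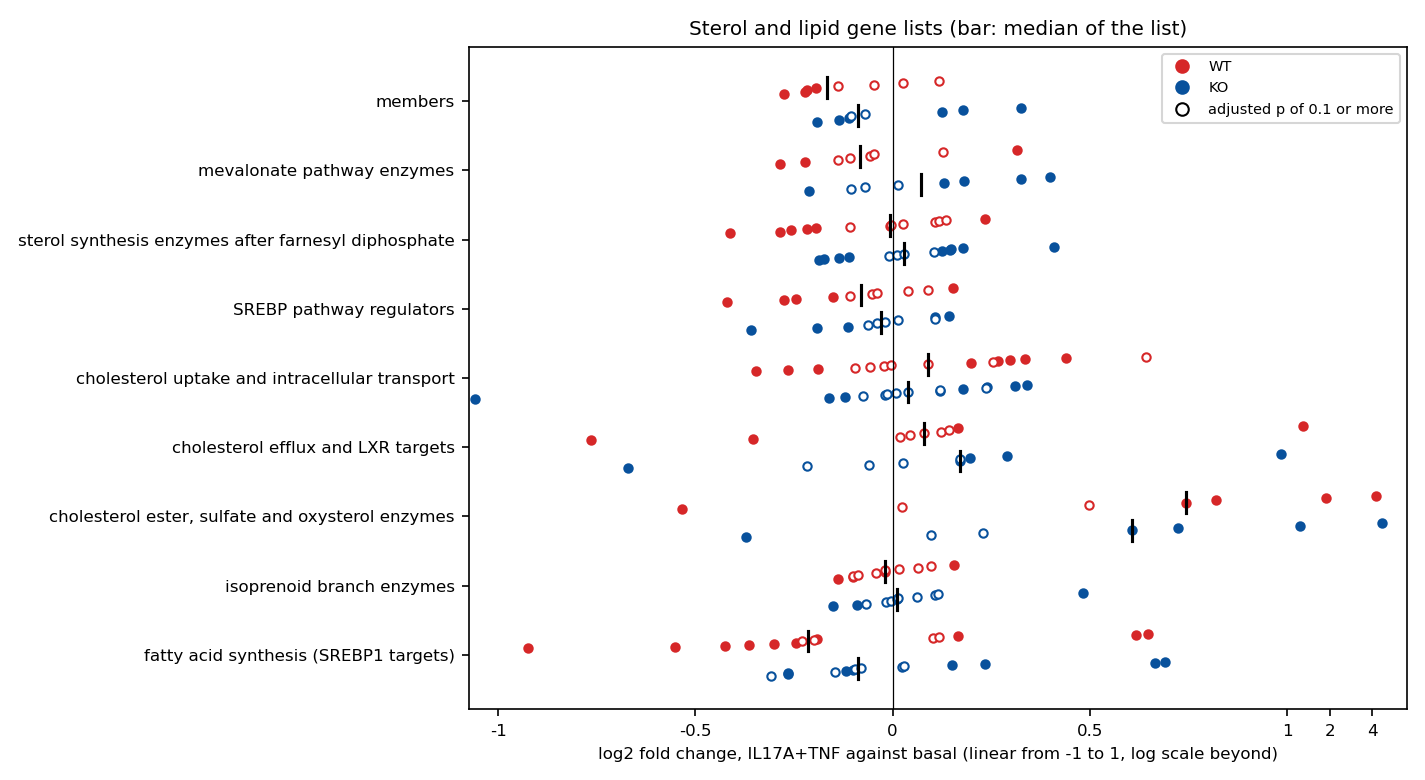
Log2 fold change with cytokines (horizontal axis, linear between -1 and 1 and on a log scale beyond) of each tested gene in the 8 genes above (top row) and 8 sterol and lipid lists, in WT and KO cells, filled where the adjusted p was under 0.1, with a bar at each median. The median of the fatty acid synthesis genes lies at -0.21 in WT and -0.088 in KO cells, and that of the ester, sulfate and oxysterol enzymes lies at 0.74 in WT and 0.61 in KO cells.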

How the data were processed

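The authors sequenced strand-specific TruSeq mRNA libraries as paired 150-base reads, ran FastQC, aligned to mm39 with STAR 2.7.10b and counted reads per gene with featureCounts 2.0.6 and GENCODE vM31, as the study's methods and the submitters' processing notes say. The deposited values used here are raw counts per gene symbol for 26 libraries, with no pooling of replicates. A second table of log2 normalized values was not used. Of the table's values from 3 to 10, 84.4% were even, and of those from 501 to 5000, 55.4%. A count may therefore not always be 1 fragment, and counting error may be larger than the counts alone give. The counting options are not given in the sources used here, and the cause was not tested.

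Genes with a mean normalized count over 10 were tested (16893 of 56738). Counts were scaled with TMM and fitted in one model of 4 groups with edgeR 4.0.16 (quasi-likelihood, limma 3.58.1, R 4.3.3), and p-values were adjusted by Benjamini-Hochberg over all genes tested. An adjusted p under 0.1 counted as passing, with a fold change over 1.5 as the stricter rule. DESeq2 1.42.0 was the other test. CPM use TMM-scaled library sizes, log2 CPM a prior count of 1. The scripts were tested on simulated data.

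The 5 comparisons were cytokines against basal in each genotype, KO against WT in each condition, and the difference between the 2 cytokine responses. The labels name 5 WT and 8 KO mice for 26 libraries, and the methods pool wells of the same animal. That libraries with a shared number in their titles came from the same mouse is taken from the titles and is not stated. The correlation of their deviations from group means over all genes ran from 0.00051 to 0.25, with a median of 0.11. Mouse was also fitted as a block. Between any 2 replicates, chi-square per degree of freedom was 7.22 or more, so the libraries are not copies of each other. Litter and sex are not given in the sources used here.

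The 8 genes and all lists were chosen with earlier results of these data known. In each list, up to 4 genes with the smallest adjusted p under 0.1 could be named. Not every listed or ranked gene is reported here. Positions, transcript lengths and overlaps come from GENCODE vM39 on GRCm39, copies from minimap2 alignments of at least 300 nt, and promoters from RefSeq. Alternatives were DESeq2 size factors, DESeq2, no filter, only the 2 groups compared, mouse as a block, an adjusted p under 0.05, the fold rule, each of 13 mice left out and, added after the data were seen, library size alone.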

Additional observations from a re-analysis of the deposited data

Results flagged for a closer look

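Among 36 sets of replicates looked at (the 8 genes and Pla2g4d in 4 groups), 1 held a library far from the rest. Fdft1 in KO basal replicate 4 was at 193 CPM, and the other 7 libraries of that group lay between 157 and 173 CPM. By design of the rule, chance gives such a gap in about 1 of 20 groups, so nothing is read from 1 gap. The sets share libraries and are not separate observations.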

How the results depend on the processing

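No fold change of the 8 genes that passed changed sign under any alternative. Of 168 values compared in WT cells, 152 kept their side of the threshold, 6 lost the call and 10 gained it, and of 168 in KO cells 144 kept it, 23 lost it and 1 gained it. All 160 values of each genotype comparison and of the interaction kept theirs. The falls of Fdft1, Sqle and Insig1 in both genotypes and the rise of Cyp51 in KO cells passed without each of the 13 mice. The fall of Fdft1 in KO cells missed the threshold without the filter on low counts (adjusted p = 0.111 in edgeR). With the fold rule 0 of the 8 genes passed in WT and 0 in KO cells, and 2349, 1837, 453, 119 and 37 of all genes passed in the 5 comparisons, since that rule only removes calls. Mouse as a block raised the interaction from 166 to 473 genes and added Hmgcs1 and Dhcr7 in WT and Idi1 in KO cells, and it changed no other call of the 8 genes.

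Apart from the fold rule, which lowered the count in all 5 comparisons, counts of all genes moved by over 1.5 times in 2 comparisons. KO against WT with cytokines gave 479 genes, 800 with DESeq2, 866 with only the 2 groups and 173 at an adjusted p under 0.05, and from 107 to 2068 without single mice, where 11 of 13 moved it that far. The interaction gave 250 with DESeq2, 85 at an adjusted p under 0.05, and from 60 to 295 without single mice, where 9 of 13 moved it that far. The cause was not tested. Library size alone, added after the data were seen, moved no median over all genes by 0.1, but moved the share of higher calls from 55.5% to 43.1% for KO against WT in basal cells and from 20.5% to 33.9% for the interaction.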
